A study of Mus musculus with 24 samples.

Results

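*Ly6c2*+ *Ccl5*+ effector CD8+ T cells were defined as T cells of Panc02 tumors with UMIs (unique molecular identifiers, which count RNA molecules) of *Cd8a* or *Cd8b1*, none of *Cd4*, at least 2 of *Ly6c2* and at least 1 of *Ccl5*. A barcode needed at least 1000 UMIs, under 10% of them mitochondrial, and at least 1 UMI of *Cd3d*, *Cd3e*, or *Cd3g*. Barcodes with any UMI of *Mki67*, or with more than 1 of *Ifit1* and *Ifit3* together or of *C1qb*, were left out, genes of cycling cells, of the interferon response, and of macrophages. Such RNA was not removed altogether, as described below for other cell types. This gave 4342 members among the 9746 CD8+ T cells that met every condition except those on *Ly6c2* and *Ccl5*, out of 120912 barcodes that passed the limits on UMIs and mitochondrial RNA. Since measured values of these 2 genes chose the members, their levels are given only as a description.

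Panc02 is a mouse pancreatic cancer cell line, and 3 × 10 to the power 6 cells were placed under the skin of male C57BL/6 mice (wild type) aged 6 to 7 weeks. The 8 treatments were Isotype Control, Anti-PD-1, Anti-CTLA-4, both antibodies, and PancVAX alone, with either antibody, or with both. PancVAX is a peptide vaccine against mutated proteins of this line, and its peptides (50 µg, which the study's methods give for each peptide) were injected on days 12 and 19 together with AddaVax and a STING agonist. Mice outside the PancVAX groups were given PBS in its place, so the peptides and the adjuvants cannot be told apart. Anti-PD-1 (100 µg) was given 2 times a week from day 12 and Anti-CTLA-4 (100 µg) on days 15 and 22, and tumors were taken on day 38. Doses and days are those of the sample labels, and a figure legend of the study gives another harvest day, another day of the second Anti-CTLA-4 dose, and another number of implanted cells. Tumors were pooled by treatment, and each treatment was sequenced as 2 libraries, one from the whole tumor suspension and one after density separation of immune cells on Percoll. Both libraries of a treatment are called its pool, although neither the labels nor the methods say whether these came from the same animals, and *P* values measure the spread between 4 pools with PancVAX and 4 without, not between mice. The preparations were also the 2 sequencing batches and cannot be told apart from them. Libraries held 77132398 to 176233225 UMIs and 38 to 609 members.

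CD8+ T cells recognize peptides on MHC class I and, once primed, become effector cells that kill through granzymes and perforin and secrete cytokines. *Ly6c2* encodes the surface protein Ly6C, found on antigen-experienced CD8+ T cells, and *Ccl5* encodes a chemokine that such cells store and release. Inside tumors, CD8+ T cells exposed to antigen for long acquire inhibitory receptors and the transcription factor TOX, a state called exhaustion.

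The gate held mostly cells well above its limits. The median member had 8 UMIs of *Ly6c2* (chromosome 15, 75108161 to 75112066, mm10) and 57 of *Ccl5* (chromosome 11, 83525778 to 83530518). A total of 444 members had exactly 2 *Ly6c2* UMIs and 107 had exactly 1 *Ccl5* UMI. Just outside were 533 cells with 1 *Ly6c2* UMI and at least 1 of *Ccl5*, and 338 cells with enough *Ly6c2* and no *Ccl5*. On the 2 sides of the *Ly6c2* limit *Gzmb* stood at 10.3 UMIs per 10000 inside and 7.02 outside, and *Gzmk* at 1.26 and 1.14. *Ly6c1*, a near-identical neighbor of *Ly6c2* whose reads could be confused with it, had a UMI in 2.46% of members. As a measure of free RNA, 2 of 1785 B cells (0.112%) met both limits, against 44.6% of CD8+ T cells, with median depths of 2135 and 4005 UMIs. These B cells were chosen with UMIs of *Cd79a* and *Ms4a1* and none of *Cd3d*, *Cd3e*, *Cd3g*, or *Lyz2*. Barcodes that had taken up such T cell RNA were thus left out, and the share can be too low. No doublet caller was run. Of the members, 271 (6.24%) held over 10000 UMIs, and 660 (15.2%) had barcode bases that recurred in another library, close to 14.4% of all barcodes kept.

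The label was compared with its other 4 markers, *Gzmb*, *Gzmk*, *Klrc1*, and *Ms4a4b*, in the members and in the 5404 other CD8+ T cells of the same libraries. *Gzmb*, the granzyme B gene, had a UMI in 79.4% of members and in 46.6% of the others (56.7% and 27.9% with every cell thinned to 1000 UMIs). In B cells the unthinned share was 0.952%. *Ms4a4b*, a T cell membrane gene, was higher in members in 16 of 16 libraries, *Gzmb* in 14, and *Gzmk* (granzyme K) in 10. *Klrc1*, which encodes the receptor NKG2A, was higher in 8 of 16. *Gzmk* had a UMI in 39.2% of members and 22.9% of the others (17.6% and 8.90% thinned), and *Klrc1* in 63.9% and 58.9% (31.3% and 24.6% thinned). Most members came from pools with PancVAX, so these pooled shares weight the libraries otherwise than the counts of libraries do, and by libraries neither gene set members apart. After thinning, members without PancVAX had *Gzmb* in 32.9%, *Ms4a4b* in 56.5%, *Gzmk* in 7.21%, and *Klrc1* in 14.7%. The other CD8+ T cells of all pools had them in 27.9%, 49.0%, 8.90%, and 24.6%. In members without PancVAX, *Gzmk* and *Klrc1* thus did not bear out the label.

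Members differed from other CD8+ T cells in the genes of circulation and of exhaustion given here, and no whole list was compared. The values below are log2 ratios within a library of UMIs per 10000 plus 0.1, given as medians over libraries and with no test, since cells chosen on measured genes are compared. *S1pr1*, the receptor for exit from tissue into blood and lymph, had a median ratio of 1.63 and was higher in members in 16 of 16 libraries. *Itgb7* (1.55), *Ccr2* (1.46), *Cxcr3* (1.43), and *Klf2* (1.24), genes of homing and of its control, were also higher in all 16. *Lag3*, an inhibitory receptor, was lower in all 16 (−1.75), as were *Tox* (−1.68), *Tnfrsf9* (−1.80), and *Pdcd1*, which encodes PD-1 (−0.94). *Gzmf* and *Gzmc*, granzymes of strongly stimulated T cells, had ratios of −2.59 and −1.91 and were lower in 15 and 14 libraries.

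Members were also set beside a narrower set of other CD8+ T cells. Against the 655 cells with UMIs of both *Pdcd1* and *Havcr2*, *Tcf7*, a transcription factor of naive and memory cells, was higher in members in 16 of 16 libraries, with a median ratio of 2.68. *Prf1*, the perforin gene, was lower in all 16 (−1.73), while *Gzmb* was higher in 6 and lower in 10. UMIs of both genes were found in 162 of 4342 members (3.73%) and in 12.1% of other CD8+ T cells (0.530% and 1.52% thinned). Among members the share was 8.68% without PancVAX and 2.81% with it, but 0.294% and 0.573% after thinning, so no order was read from it.

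**Figure D1:**
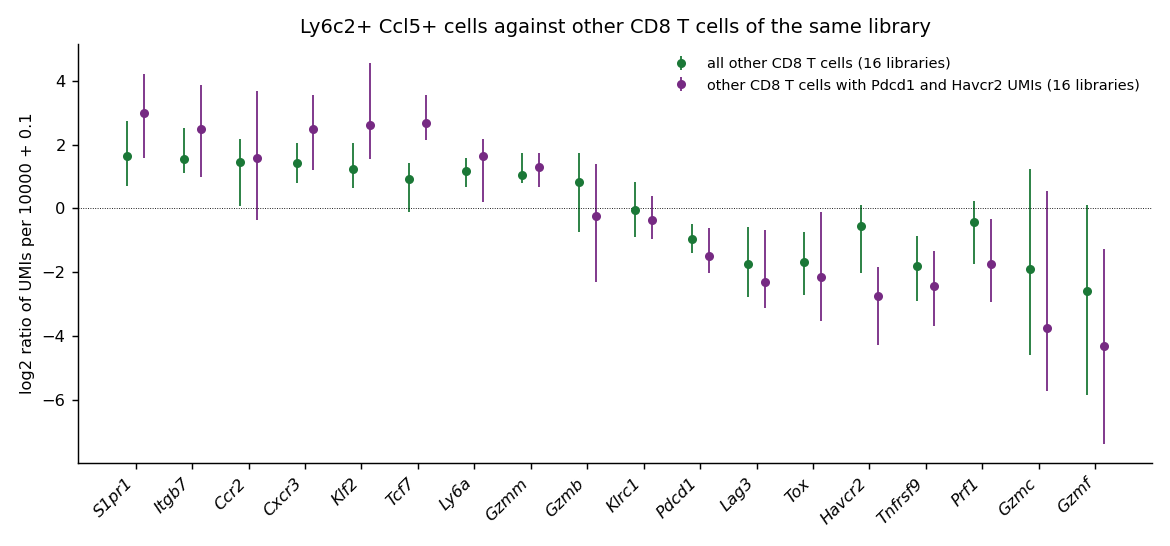
Log2 ratio of UMIs per 10000 plus 0.1 in members against other CD8+ T cells (green) and against those with *Pdcd1* and *Havcr2* UMIs (purple), for 18 genes. Points are medians and lines run from the lowest to the highest of 16 libraries. *S1pr1* lies above 0 and *Lag3* below 0 in every library against both sets, and *Havcr2* helped to choose the purple set.

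The first comparison asked how large this population was with and without PancVAX. Members made up 13.4% of CD8+ T cells with Isotype Control (87 of 651, exact 95% interval 10.8 to 16.2), 22.0% with Anti-PD-1, 19.3% with Anti-CTLA-4, and 18.6% with both antibodies. With PancVAX they made up 62.3% (635 of 1020, 59.2 to 65.2), with Anti-PD-1 added 55.4%, with Anti-CTLA-4 added 65.8%, and with both added 60.1%. The groups of pools did not overlap. The mean was 60.9% ± 4.32 with PancVAX and 18.3% ± 3.62 without (SD, n = 4 each), a difference of 42.6 percentage points (all 70 splits of the pools enumerated, exact permutation, two-sided *P* = 0.0286, adjusted *P* = 0.0286, the smallest that this design allows). The limits of the gate were chosen with earlier results known, so this *P* value is not independent support. Among all barcodes kept, the members were 5.21% to 6.81% of the pools with PancVAX and 0.637% to 1.53% of those without. Intervals cover counting error only.

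Taken alone, whole tumor libraries gave a difference of 43.2 points, and Percoll libraries one of 42.3. Members of pools with PancVAX were shallower, with median depths of 3189 to 3514 UMIs against 4407 to 5592 without. With each cell thinned to 1000 UMIs before the gate, the means were 40.6% and 5.86%. Barcodes with no UMI of *C1qa*, *Lyz2*, *Apoe*, *Cd79a*, *S100a8*, *S100a9*, *Krt8*, or *Krt18*, markers of macrophages, B cells, neutrophils, and epithelial cells, gave a difference of 45.3 points. Both parts of the gate differed between the groups. At least 2 *Ly6c2* UMIs were found in 57.4% to 68.6% of CD8+ T cells with PancVAX and in 19.2% to 29.0% without. Among those cells, *Ccl5* was present in 94.5% to 97.2% and in 69.6% to 82.0%.

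For the antibodies the test of the share could not fall under 0.05, so the values are given with no conclusion drawn. Averaged over the other treatments, Anti-PD-1 differed by −1.13 points (exact two-sided permutation test, *P* = 0.722) and Anti-CTLA-4 by 2.66 points (*P* = 0.333, exact permutation), where 0.0556 is the smallest *P* that the 36 arrangements allow. With PancVAX, Anti-PD-1 differed by −6.25 points and without PancVAX by 3.99 points, a contrast between strata that was not tested. Whole tumor libraries with PancVAX held 63.6% and 60.7% with Anti-PD-1 and 61.1% and 62.7% without. Percoll libraries held 49.4% and 59.6% against 63.3% and 69.8%, so the lower share lay in that preparation. The lowest share among vaccinated libraries, 49.4% (interval 46.5 to 52.2), was that of PancVAX + Anti-PD-1 after Percoll.

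**Figure D2:**
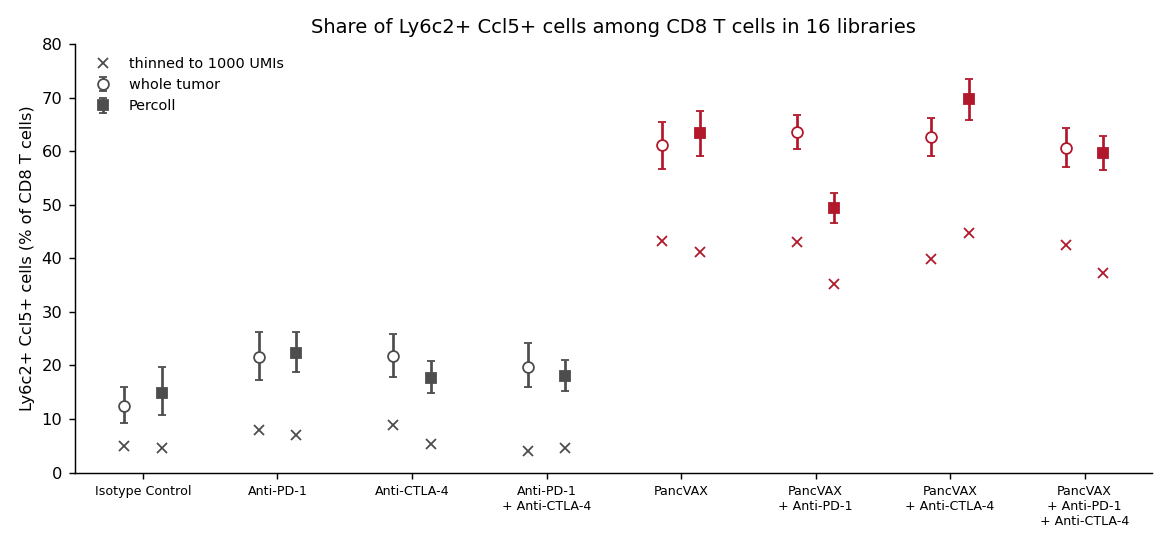
Share of *Ly6c2*+ *Ccl5*+ cells among CD8+ T cells (%) in each library by treatment. Open circles are whole tumor and filled squares Percoll libraries with exact 95% binomial intervals, crosses are the same libraries thinned to 1000 UMIs per cell, and red marks PancVAX. The 8 vaccinated libraries lie between 49.4% and 69.8% and the others between 12.4% and 22.4%.

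Within the members, many genes differed with PancVAX. UMIs were summed by pool and fitted with edgeR (quasi-likelihood, antibodies as terms), and a gene was called at a Benjamini-Hochberg adjusted *P* under 0.05 and an absolute log2 fold change over 0.5. Of 9840 genes, 519 were called (5.27%), 319 higher (3.24%) and 200 lower (2.03%). The median log2 fold change of all genes was 0.0088. The pools did not overlap for 435 of the 519, against 1541 of all 9840 (15.7%). Of the 519, 465 had the same direction in both preparations. Each pool sum adds both preparations, so this agreement is partly built in, and its share over all genes was not taken. In simulated data the test recovered 22.0% of genes changed 1.5-fold, 71.5% of those changed 2-fold, and 96.0% of those changed 4-fold, so that many smaller changes would not be called. Without the Anti-PD-1 pool 308 genes were called, and without the PancVAX + Anti-CTLA-4 pool 340. Levels below are UMIs per 10000 member UMIs, in the order Isotype Control, Anti-PD-1, Anti-CTLA-4, both antibodies, and then the same order with PancVAX. In a bulk sum like this, more cells with a transcript and more transcript per cell cannot be told apart, so shares of cells are given for the main genes.

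The gate genes are described first. *Ccl5* stood at 40.2, 47.3, 40.8, and 42.8 without PancVAX and at 162, 172, 153, and 142 with it. *Ly6c2* stood at 16.1, 16.3, 13.3, and 13.9, and at 23.9, 23.6, 21.4, and 20.0 with PancVAX. Both were thus higher within the gate in every vaccinated pool, *Ccl5* by far the more, although the gate asked for only 1 UMI of it.

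Of 16 genes for cytotoxic effectors and cytokines, 5 rose and 2 fell, and the median of the list was 0.28. *Gzmb* (chromosome 14, 56258836 to 56262334) stood at 5.00, 7.37, 6.14, and 8.83 without PancVAX and at 19.6, 12.1, 11.9, and 14.0 with it. The groups did not overlap, and the log2 fold change was 1.00 ± 0.19 (SE, adjusted *P* = 0.00742, edgeR). After thinning, 27.6% to 35.3% of members had *Gzmb* without PancVAX and 56.5% to 68.0% with it (unthinned 51.7% to 68.7% and 80.5% to 87.9%). *Gzmk* (chromosome 13, 113171630 to 113180965) stood at 0.857, 0.760, 0.502, and 0.580, and with PancVAX at 2.46, 2.11, 1.51, and 1.60. Every vaccinated pool was above every other pool (1.44 ± 0.11, adjusted *P* = 1.45e-05). Both granzymes were found together in 14.0% of members with PancVAX and in 3.82% without, and neither in 33.4% and 63.7%, after thinning.

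*Tnf* (1.76 ± 0.19, adjusted *P* = 0.000199) and *Ifng*, the interferon-γ gene (1.07 ± 0.17, adjusted *P* = 0.00295), rose, as did *Fasl* (1.04), the ligand of the death receptor Fas. *Ifng* ranged from 0.501 to 1.05 without PancVAX and from 1.72 to 2.09 with it. *Gzma*, a neighbor of *Gzmk* on chromosome 13, did not pass the test, at 6.20, 3.93, 2.04, and 9.66 without PancVAX and 21.3, 10.4, 9.32, and 11.0 with it (1.18 ± 0.39, adjusted *P* = 0.0931). The summed levels of *Gzma* overlapped, but the shares of members with a UMI did not, at 5.35% to 12.6% without PancVAX and 27.7% to 36.1% with it after thinning (unthinned 8.29% to 19.5% and 36.5% to 45.5%). *Prf1* (0.42 ± 0.18, adjusted *P* = 0.195) and *Nkg7* (0.03 ± 0.09, adjusted *P* = 0.889), a protein of cytotoxic granules, also did not pass. *Prf1* had a UMI in 3.45% to 6.42% of thinned members without PancVAX and in 9.98% to 15.0% with it (unthinned 20.7% to 27.8% and 28.02% to 33.9%). These shares were not tested.

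*Xcl1*, a chemokine that draws cross-presenting dendritic cells, fell by 1.49 on the log2 scale (SE 0.31, adjusted *P* = 0.012). It stood at 7.02, 2.82, 2.60, and 3.27, and with PancVAX at 0.977, 1.07, 1.52, and 2.13. The call was lost without the PancVAX + Anti-PD-1 pool and in Percoll libraries alone. *Cst7*, a protease inhibitor of granules, fell too (−0.89). Granzymes of the chromosome 14 cluster that also holds *Gzmb* moved against it. *Gzmf* (56205263 to 56211407) stood at 2.30, 4.99, 3.92, and 2.15 without PancVAX and at 0.677, 0.213, 0.301, and 0.0858 with it (−3.77 ± 0.38, adjusted *P* = 0.000124). *Gzme* (−3.09) and *Gzmc* (−2.21) fell as well. These granzymes are close copies of each other, so that reads could be split among them. *Gzmb* and these 3 genes did not reach the call in the whole tumor libraries alone, nor did *Gzmc* in the Percoll libraries alone.

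**Figure D3:**
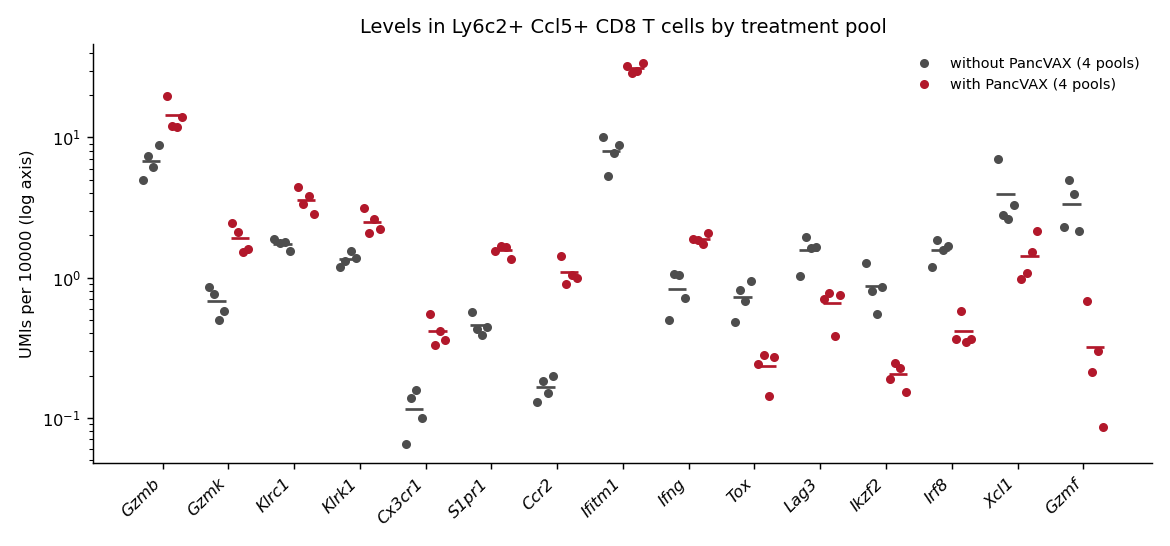
UMIs per 10000 (log axis) in members of each pool for 15 genes. Grey points are the 4 pools without PancVAX, red points the 4 with it, and bars their means. The groups do not overlap for any of the genes drawn, with *Ccr2* between 0.129 and 0.198 without and 0.899 and 1.42 with PancVAX.

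The receptors of NK type split. Of 11 genes tested, 3 rose and 5 fell, with a median of −0.42. *Klrc1* stood at 1.88, 1.75, 1.79, and 1.54 without PancVAX and at 4.41, 3.34, 3.81, and 2.84 with it (0.95 ± 0.09, adjusted *P* = 0.000108). *Klrk1*, the activating receptor NKG2D, rose (0.78), and *Klrg1*, a marker of short-lived effector cells, rose from at most 0.0384 to between 0.10 and 0.265 (2.86 ± 0.50, adjusted *P* = 0.0046). *Cd160* (−1.83), *Cd244a* (−1.89), *Klre1* (−1.81), *Klra7* (−2.21), and *Fcer1g* (−0.96), genes of innate-like and activated lymphocytes, fell. *Klra1*, which is not on the list, fell also (−3.27 ± 0.58, adjusted *P* = 0.0051), and *Klra* genes are near-identical copies whose counts are uncertain.

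Of 18 surface genes of effector and memory cells, 9 rose, 1 fell (*Ms4a4c*, −1.07), and 8 were not called, with a median of 0.50. *S1pr1* stood at 0.566, 0.430, 0.392, and 0.446 without PancVAX and at 1.55, 1.69, 1.66, and 1.35 with it (1.71 ± 0.12, adjusted *P* = 1.45e-05). *Cx3cr1*, a receptor of cytotoxic effector cells, ranged from 0.0647 to 0.157 and from 0.328 to 0.546 (1.63 ± 0.22, adjusted *P* = 0.000898). The integrins *Itgb7* (1.45) and *Itgb1* (1.15) and the IL-18 receptor genes *Il18r1* (1.26) and *Il18rap* (0.82) rose. *Ms4a4b* stood at 9.19, 8.47, 8.05, and 7.49 and with PancVAX at 13.3, 13.2, 12.1, and 11.3 (0.52 ± 0.07, adjusted *P* = 0.000733). It was close to the limit on fold and lost its call in 6 alternatives.

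Of 7 chemokine receptors, 3 rose and 1 fell, with a median of 0.26. *Ccr2*, which answers CCL2 and brings cells from blood into inflamed tissue, had the largest rise of the list, at 0.129, 0.184, 0.149, and 0.198 without PancVAX and 1.42, 0.899, 1.05, and 0.997 with it (2.55 ± 0.19, adjusted *P* = 1.45e-05). *Cxcr3* (1.03) rose too, while *Cxcr6* (0.16 ± 0.16, adjusted *P* = 0.647) did not pass. Of 7 genes of tissue residency, *Itga1* rose (0.62), *Rgs2* (−0.58) and *Xcl1* fell, and *Itgae*, the integrin of resident cells, did not pass (0.21 ± 0.24, adjusted *P* = 0.693), with a median of 0.21 for the list. The calls of *Itga1* and *Rgs2* were lost under 7 alternatives each.

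Of 11 inhibitory receptors and exhaustion genes, none rose and 5 fell, and the median was −0.79. *Tox* stood at 0.485, 0.822, 0.683, and 0.942 without PancVAX and at 0.241, 0.281, 0.143, and 0.272 with it (−1.77 ± 0.17, adjusted *P* = 7.73e-05). *Lag3* ranged from 1.02 to 1.95 and with PancVAX from 0.386 to 0.774 (−1.38 ± 0.18, adjusted *P* = 0.000733). *Rgs16* (−1.47), *Cd38* (−0.92), and *Havcr2* (−0.88), which encodes TIM-3, fell as well. *Pdcd1* stood at 1.60, 1.92, 1.98, and 2.58 and with PancVAX at 1.87, 1.82, 1.83, and 1.90, so that the groups overlapped (−0.20 ± 0.11, adjusted *P* = 0.346). *Tigit* (−0.17 ± 0.13, adjusted *P* = 0.53) and *Ctla4* (0.20 ± 0.11, adjusted *P* = 0.36) also did not pass. After thinning, *Pdcd1* was found in 16.7% to 18.8% of members with PancVAX and in 11.5% to 20.4% without. Shares of *Havcr2* overlapped as well, at 1.18% to 1.72% and 0% to 3.48% (unthinned 4.25% to 5.56% and 3.45% to 13.4%).

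Naive and central-memory genes were divided, with 2 of 11 higher, 5 lower, and a median of −0.54. *Ccr7*, a receptor that leads cells to lymph nodes, ranged from 0.779 to 1.20 without PancVAX and from 0.272 to 0.467 with it (−1.38 ± 0.13, adjusted *P* = 6.39e-05). *Dapl1* (−2.04), *Igfbp4* (−1.67), and *Myb* (−1.63) fell as well, the latter 2 losing their call under 8 and 7 alternatives. *Il7r*, the IL-7 receptor of long-lived cells, rose (0.99 ± 0.14, adjusted *P* = 0.00129), with *Klf2* (0.51). *Tcf7* (−0.23 ± 0.18, adjusted *P* = 0.526) and *Lef1* (−0.20 ± 0.13, adjusted *P* = 0.412) did not pass.

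Among 13 transcription factors of T cell fate, 2 rose and 3 fell, with a median of 0.26. *Ikzf2*, or Helios, ranged from 0.549 to 1.28 without PancVAX and from 0.153 to 0.246 with it (−2.12 ± 0.19, adjusted *P* = 6.39e-05). *Irf8* ranged from 1.20 to 1.84 and from 0.349 to 0.578 (−2.03 ± 0.15, adjusted *P* = 1.45e-05). *Eomes* fell (−1.30) and *Prdm1*, or Blimp-1, rose (1.12), but these calls were lost under 6 and 9 alternatives. *Bhlhe40*, a factor of cytokine production, rose (0.65). *Id2* did not reach the limits (0.35 ± 0.10, adjusted *P* = 0.0546), nor did *Tbx21*, or T-bet (0.42 ± 0.17, adjusted *P* = 0.158).

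A list of Ifitm, S100, galectin, and cytoskeletal genes had rises only. *Ifitm1*, an interferon-inducible membrane gene, stood at 10.1, 5.34, 7.80, and 8.88 without PancVAX and at 32.3, 28.7, 30.0, and 33.9 with it (1.90 ± 0.14, adjusted *P* = 1.45e-05). Of the 16 genes 5 were higher and none lower, with a median of 0.32, and they included *Lgals3* (galectin-3, 1.48), *Ahnak* (1.04), *Crip1* (0.85), and *Vim* (0.53). Among 17 interferon-induced genes, *Irf7* rose (0.88 ± 0.15, adjusted *P* = 0.00348), none fell, and the median was −0.0049. The gate had left out barcodes with more than 1 UMI of *Ifit1* and *Ifit3* together, so this list cannot speak for cells with a strong interferon response. Of 16 cytokine receptors, 4 rose and none fell, with a median of 0.24. *Ifngr1*, the ligand-binding chain of the interferon-γ receptor, went from between 4.18 and 4.74 to between 7.01 and 7.73 (0.65 ± 0.08, adjusted *P* = 0.000414), and *Il12rb2* rose by 0.91. *Il21r* (0.05 ± 0.10, adjusted *P* = 0.852) and *Ifnar1* (0.26 ± 0.12, adjusted *P* = 0.238) did not pass.

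Activation and immediate early genes gave 3 higher and 2 lower of 20, with a median of 0.12. *Dusp2* (0.79), *Nfkbia* (0.57), and *Tnfaip3* (0.52), feedback inhibitors of signaling, rose, whereas the costimulatory receptors *Tnfrsf9* (4-1BB, −1.20) and *Tnfrsf4* (OX40, −1.34) fell. Of 8 survival genes (median 0.25), the kinase *Pim1* rose (0.92 ± 0.12, adjusted *P* = 0.000616) and *Bcl2l11*, the cell death gene BIM, fell (−1.33 ± 0.14, adjusted *P* = 0.000148). None of 9 antigen presentation genes, 10 heat shock and dissociation genes, or 10 cell cycle genes was called by edgeR, with medians of 0.06, −0.10, and −0.08. The gate had left out barcodes with an *Mki67* UMI, so the cell cycle list cannot speak for cycling cells, and no conclusion is drawn from it.

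**Figure D4:**
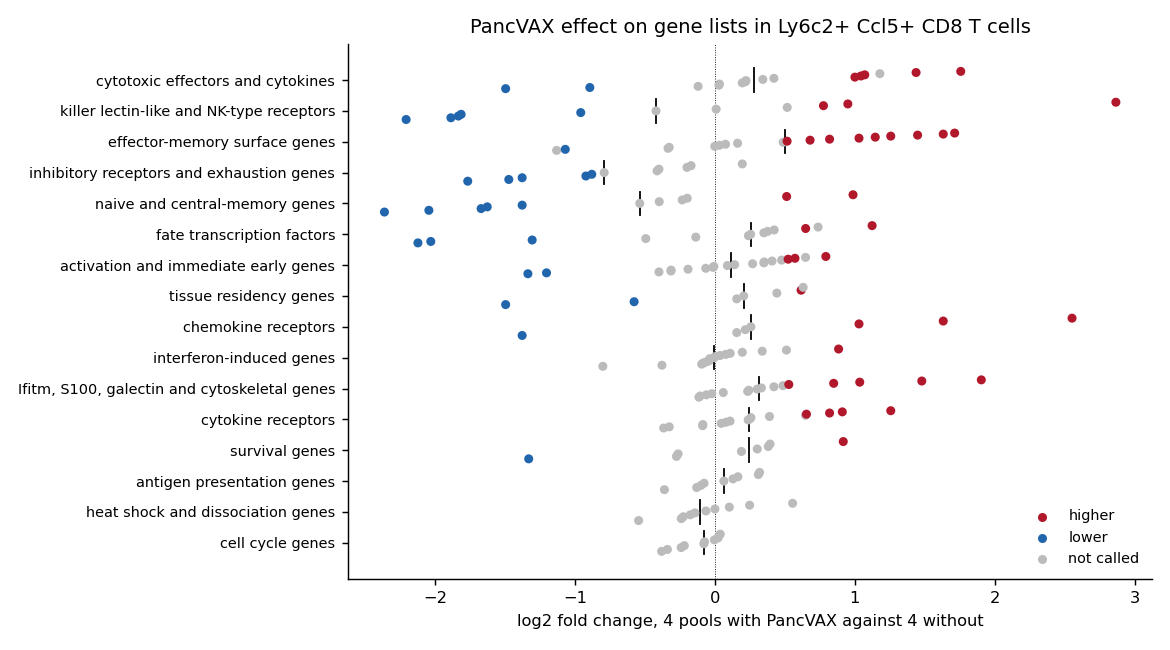
Log2 fold change of members in 4 pools with PancVAX against 4 without (x axis) for each tested gene of 16 lists. Red points were called higher, blue lower, and grey not called, and the black bar is the median of the list. The inhibitory list has 5 blue points and no red one, and the list with *Ifitm1* has 5 red points and no blue one.

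The largest changes by fold included scarce transcripts. *Esm1*, a secreted proteoglycan, had 206 UMIs with PancVAX and 1 without, a ratio of 58.4 (exact counting interval 10.4 to 2319). *Nccrp1* ranged from 0.287 to 0.392 with PancVAX and from 0.0142 to 0.0485 without (3.63 ± 0.27, adjusted *P* = 1.45e-05), and *Prss16* from 0.0932 to 0.119 and from 0.00708 to 0.0162 (3.48 ± 0.42, adjusted *P* = 0.0004). *Krt83* (3.13), *Itgam* (2.97), and *Mmp3* (3.50) were also among the 8 largest rises, the last with overlapping pools and a call lost under 7 alternatives. Besides genes given above, *Nrgn* (−2.70), *Nsg2* (−2.23), and *Tmem273* (−2.21) were among the 8 largest falls.

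RNA of other cell types was present in the members and differed between the groups for some lists. Of all members, 49.4% held a UMI of the macrophage list, 52.7% of the B cell list, 55.1% of the NK cell list, 64.2% of the regulatory T cell list, 22.5% of the tumor and epithelial list, and 18.8% of the stromal and endothelial list, and activated CD8+ T cells themselves express some genes of these lists, such as *Gzma*. The 11 macrophage genes summed to 2.64 to 4.36 UMIs per 10000 with PancVAX and to 1.78 to 2.31 without. With UMIs added over all members of each group, all 11 were higher with PancVAX, and 1 of 9 tested was called (*Itgam*). The 6 stromal and endothelial genes summed to 1.55 to 5.86 and to 1.63 to 2.49, with *Col3a1* called (2.17) on 1 pool, and the 6 NK cell genes to 10.5 to 22.7 and 3.00 to 10.8, led by *Gzma*. B cell genes summed to 3.65 to 8.86 with PancVAX and to 6.02 to 12.6 without, with *Ighm* lower (−1.66). Tumor and epithelial genes (3.74 to 9.68 and 3.82 to 7.14), neutrophil genes (0.637 to 2.76 and 0.421 to 4.57), regulatory T cell genes (3.24 to 3.74 and 3.35 to 4.64), and γδ T cell genes (0.0543 to 0.227 and 0.0235 to 0.421) overlapped, *Il17a* was at 0, and erythroid genes reached at most 0.0162. *Ikzf2* and *Tnfrsf4* of the regulatory T cell list and *Eomes* of the NK cell list were called lower with PancVAX, as given above. The part of other-cell transcripts in the results above was not tested directly. In the 2326 members (53.6%) with no UMI of *C1qa*, *Lyz2*, *Apoe*, *Cd79a*, *S100a8*, *S100a9*, *Krt8*, or *Krt18*, which still could hold UMIs of other genes on these lists, 624 genes were called with PancVAX, and 364 of them were called in the same direction over all members.

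Fewer genes were called for the antibodies, and their number varied with the libraries used. Averaged over the other treatments, edgeR called 0 of 9840 genes for Anti-PD-1 (0.0%), with 346 at an unadjusted *P* under 0.05, and DESeq2 called 0. In a fit of the 8 libraries whose mice were given PancVAX, with or without antibodies, 30 were called. That fit took the 2 libraries of each pool as separate replicates, so its counts do not rest on pools as the others do. For Anti-CTLA-4, 4 genes were called (0.0407%), all higher, with 733 at an unadjusted *P* under 0.05. In the fit of those 8 libraries, again with libraries and not pools as replicates, 91 were called. *Nupr1*, a stress-induced nuclear protein, stood at 6.04, 5.71, 6.35, and 7.03 in the pools with Anti-CTLA-4 and between 2.18 and 3.49 in the others (1.14 ± 0.13, adjusted *P* = 0.00801). *Sdc4*, a cell surface proteoglycan, ranged from 1.45 to 1.93 and from 0.599 to 0.906 (1.09 ± 0.13, adjusted *P* = 0.00801). Tumor and epithelial RNA was also higher on average in these pools, with its 7 genes summing to 4.86 to 9.68 with Anti-CTLA-4 and to 3.74 to 5.71 without, 4 of 7 higher, and a median log2 fold change of 0.69 over the 5 tested, against −0.01 over all genes. The 6 stromal and endothelial genes summed to 2.25 to 5.86 and to 1.55 to 2.74, with 4 of 6 higher and a median of 0.65. None of these genes was called by edgeR, and the part of this RNA in the calls was not tested beyond the members without the 8 other-cell genes, given below. *Akr1c18*, named after its values were seen, had UMIs only in the pools with both antibodies. No gene was called for Anti-CTLA-4 without the PancVAX + Anti-PD-1 pool, without the pool given all 3 agents, or among the members with no UMI of the 8 other-cell genes, while 25 were called without the Isotype Control pool and 22 without the pool of both antibodies alone. *Gzmb*, at 0.12 ± 0.19 for Anti-PD-1 and −0.06 ± 0.19 for Anti-CTLA-4, did not pass for either antibody.

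Members also differed between the preparations. In a fit of 16 libraries with treatment as a term, 275 of 8788 genes differed between Percoll and whole tumor (3.13%), 173 higher (1.97%) and 102 lower (1.16%) after Percoll. *Ifng* (1.44 ± 0.10, adjusted *P* = 9.97e-08), *Tnf* (1.85 ± 0.15, adjusted *P* = 6.03e-07), and the early activation gene *Cd69* (1.41 ± 0.11, adjusted *P* = 7.8e-07) were higher after Percoll, *Tnf* in 8 of 8 pools. Of 20 activation genes 6 were higher and none lower, and of 10 heat shock genes 2 were higher. *Arc* (3.18), *Gadd45g* (1.98), and *Gadd45b* (1.83) were among the largest rises. Muscle genes, *Myl1* (−5.51), *Tnnc2* (−4.91), *Acta1* (−4.65), and *Ckm* (−3.91), were lower after Percoll, as were *Col1a1* (−2.81) and the macrophage genes *C1qa* (−0.96) and *C1qc* (−0.89). *Gzmk* (−0.03), *Klrc1* (0.36), *Gzmb* (0.31), and *Ms4a4b* (−0.41) did not reach both limits of the call. Since each pool held both preparations, the PancVAX comparison was also made within each, with 148 genes called in whole tumor and 330 in Percoll libraries.

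T cell receptors were sequenced in the 8 Percoll libraries. A β chain (TRB) was found in 1838 of 2281 members (80.6%) and in 2454 of 3071 other CD8+ T cells (79.9%). Cells of a library were placed in a clone when they shared the V gene and the bases of the CDR3, the stretch of the chain that meets the peptide. Members formed 1229 clones. The largest clones of members are printed to show how differently they were spread. The first and last 9 bases, which come mostly from the V and J segments, are in lower case and the middle in capitals.
Anti-PD-1, TRBV13-1 and TRBJ1-6: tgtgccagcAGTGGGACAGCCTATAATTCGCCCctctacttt
PancVAX + Anti-CTLA-4, TRBV16 and TRBJ2-5: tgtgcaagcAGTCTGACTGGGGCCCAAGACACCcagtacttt
PancVAX + Anti-PD-1, TRBV26 and TRBJ1-2: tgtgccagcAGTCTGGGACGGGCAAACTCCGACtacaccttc
PancVAX + Anti-CTLA-4, TRBV12-2 and TRBJ2-1: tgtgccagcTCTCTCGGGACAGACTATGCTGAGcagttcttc
PancVAX + Anti-PD-1, TRBV16 and TRBJ2-7: tgtgcaagcAGTTATGAAcagtacttc

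The first held 21 members, 20.6% of those with a chain in its library, and 24 other CD8+ T cells, 4 of them with *Pdcd1* and *Havcr2*. The second also held 21 members, but only 6.75% of its library and 1 other CD8+ T cell. The third held 15 members, and the last 2 held 13 each, as did a clone of the Anti-CTLA-4 library with TRBV5 (13.1% of its members and 47 other CD8+ T cells).

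The chance that 2 members drawn from a library shared a clone (unbiased Simpson index) was 0%, 4.35%, 1.88%, and 1.79% without PancVAX and 0.443%, 0.477%, 0.929%, and 0.290% with it. The means were 2.00% ± 1.79 and 0.535% ± 0.275 (SD, n = 4 each), and the groups overlapped through the Isotype Control library, whose 35 members with a chain were 35 clones. The difference of −1.47 points did not pass (exact two-sided permutation test, *P* = 0.143, adjusted *P* = 0.143). Without the Isotype Control library it was −2.14 points (*P* = 0.0286, exact permutation), and without the Anti-PD-1 library −0.69 (*P* = 0.286, exact permutation). With members chosen after thinning to 1000 UMIs it was −0.80 points (*P* = 0.4, exact permutation). With any library but Isotype Control left out, *P* lay between 0.171 and 0.286 (exact permutation). Members were less clonal than other CD8+ T cells in 7 of 8 libraries, at 1.27% ± 1.42 and 2.60% ± 1.62 (SD, n = 8), with Anti-PD-1 as the exception (4.35% and 1.83%). This did not pass either (−1.33 points, exact two-sided sign-flip permutation test, *P* = 0.141, adjusted *P* = 0.143). Without the Anti-PD-1 library it was −1.88 points (*P* = 0.0156, exact permutation), and without the library given all 3 agents −0.67 (*P* = 0.281, exact permutation). With any library but Anti-PD-1 left out, *P* lay between 0.172 and 0.281 (exact permutation). With members chosen after thinning to 1000 UMIs the difference was −1.21 points (*P* = 0.0313, exact permutation).

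Expanded clones, of 2 or more T cells, held 25.7% to 50.4% of members without PancVAX and 54.2% to 63.9% with it. Larger numbers of cells per library raise this share, and libraries with PancVAX held 275 to 468 members with a chain against 35 to 113. The share of members whose clone was also found among CD8+ T cells with *Pdcd1* and *Havcr2* was 8.57%, 35.3%, 23.2%, and 18.6% without PancVAX and 1.45%, 2.30%, 0.643%, and 2.78% with it. There were 33 to 74 such *Pdcd1*+ *Havcr2*+ cells with a chain without PancVAX and 20 to 38 with it, so this is given as a description. Seen from these cells, 9.09% to 51.4% and 15.0% to 41.7% belonged to a clone with a member, and the groups overlapped.

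**Figure D5:**
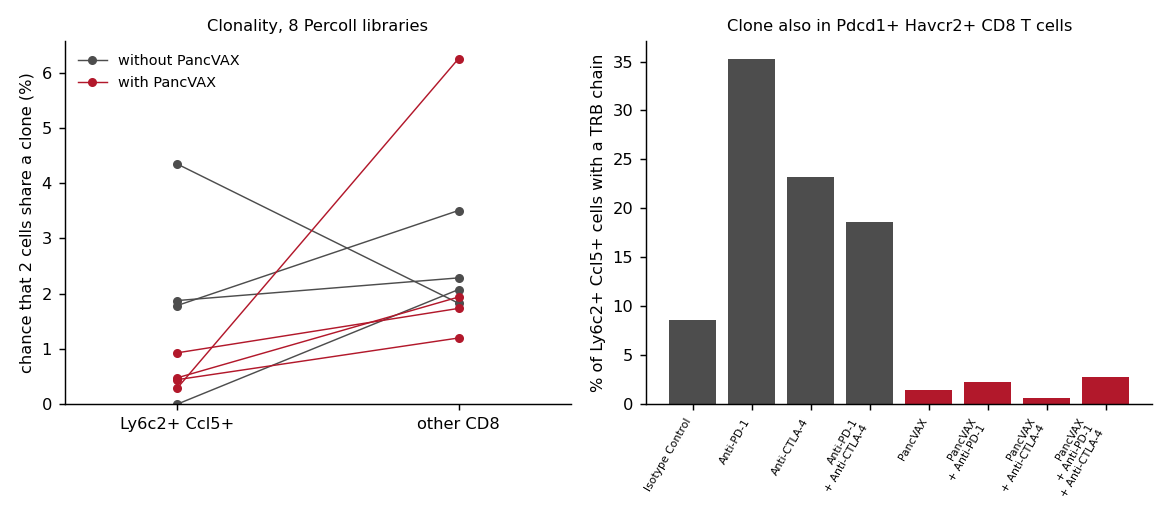
Left, the chance in percent that 2 cells share a clone in members and in other CD8+ T cells of each of 8 Percoll libraries, joined by a line. Right, percent of members with a TRB chain whose clone was also found in *Pdcd1*+ *Havcr2*+ CD8+ T cells. Red marks PancVAX, and on the right the red bars lie between 0.643% and 2.78% and the grey ones between 8.57% and 35.3%.

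Identical TRB bases in members of different libraries were rare, with 7 of 1220 V and CDR3 combinations, 6 of them between PancVAX libraries. Both combinations found in 3 PancVAX libraries, with 7 and 6 members in this order, are printed, and the capitals again mark the middle of the CDR3.
TRBV12-2 and TRBJ2-1: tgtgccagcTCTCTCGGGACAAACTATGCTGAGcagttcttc
TRBV12-2 and TRBJ2-1: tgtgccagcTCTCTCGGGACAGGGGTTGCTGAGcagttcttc

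The exception was the large Anti-PD-1 clone shown above, which also held 5 members of the PancVAX + Anti-PD-1 library, where 14 T cells carried it. No 16-base cell barcode recurred among the cells of any shared clone.

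When CDR3s were compared after translation, 39 of 1160 combinations of V gene and CDR3 recurred between libraries and held 211 members. Among PancVAX libraries 34 of 898 recurred (3.79%), with 160 of 1489 members, and among the others 1 of 267, with 3 of 349 members. The sets differ in size, and a larger set holds more pairs, so these shares were not tested. Among other CD8+ T cells, 49 of 888 recurred over all 8 libraries and 13 of 423 among those with PancVAX. The CDR3s that recurred in members were carried by 562 T cells in all, of which 179 were other CD8+ T cells and 172 did not meet the CD8 conditions. Of the 39, 36 had at least 2 nucleotide forms, that is, the same translated CDR3 written with different bases, and 34 were found in members of PancVAX libraries only. The 2 with most nucleotide forms are printed, with capitals at the positions that differ within a set. The first used TRBV13-1 (chromosome 6, 41116036 to 41116468) and TRBJ2-7, with 7 forms of 42 bases that differ at 3 positions.
PancVAX: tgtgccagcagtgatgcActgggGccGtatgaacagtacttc
PancVAX + Anti-PD-1: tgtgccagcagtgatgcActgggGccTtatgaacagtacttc
PancVAX + Anti-PD-1: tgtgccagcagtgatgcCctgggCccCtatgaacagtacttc
PancVAX + Anti-PD-1: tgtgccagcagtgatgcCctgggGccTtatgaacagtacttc
PancVAX + Anti-PD-1: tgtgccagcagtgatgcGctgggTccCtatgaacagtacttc
PancVAX + Anti-CTLA-4: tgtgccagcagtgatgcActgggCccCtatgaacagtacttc
PancVAX + Anti-CTLA-4: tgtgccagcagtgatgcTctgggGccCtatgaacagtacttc

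These held 16 members, and the translated CDR3 was carried by 26 T cells, all in the 4 PancVAX libraries. The second used TRBV17 (chromosome 6, 41163092 to 41163556) and TRBJ2-5, with 6 forms of 39 bases that differ at 6 positions.
PancVAX: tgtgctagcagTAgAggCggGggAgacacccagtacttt
PancVAX + Anti-PD-1: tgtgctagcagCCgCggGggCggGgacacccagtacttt
PancVAX + Anti-PD-1: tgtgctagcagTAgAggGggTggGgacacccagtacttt
PancVAX + Anti-PD-1: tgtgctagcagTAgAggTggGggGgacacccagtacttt
PancVAX + Anti-PD-1 + Anti-CTLA-4: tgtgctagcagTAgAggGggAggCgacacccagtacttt
PancVAX + Anti-PD-1 + Anti-CTLA-4: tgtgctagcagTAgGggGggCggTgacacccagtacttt

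These held 13 members, and 16 T cells carried the translated CDR3, all in PancVAX libraries. The specificity of these receptors was not measured.

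V gene use was compared over 22 V genes. TRBV17 was used by 0% to 2.02% of members without PancVAX and by 4.18% to 9.19% with it. TRBV12-2 (chromosome 6, 41118864 to 41119364) was used by 4.90% to 8.57% without and by 8.74% to 19.9% with PancVAX (exact two-sided permutation test, *P* = 0.0286, adjusted *P* = 0.210). TRBV2 was used by 3.03% to 7.96% without and by 1.07% to 2.89% with PancVAX. None of the 3 passed after adjustment, and these were the V genes under an unadjusted *P* of 0.05. TRBV13-1 made up 33.3% of members with Anti-PD-1 and TRBV5 29.3% of those with Anti-CTLA-4, the libraries whose largest clones used them.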

How the data were processed

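The authors aligned reads to mm10 and counted UMIs with Cell Ranger 4.0.0, and they also used Seurat. The deposited counts are raw UMI counts per gene and barcode of 16 libraries. Receptor contigs were used for the 8 Percoll libraries. Libraries were identified by the number that ends each barcode. Members were chosen by the rule given above, and the members and gene lists were chosen with earlier results of these data known. Member UMIs were summed by pool and tested with edgeR 4.0.16 (TMM, filterByExpr, quasi-likelihood, R 4.3.3), leaving out the 12 genes of the rule. Shares and clonality were tested by exact permutation over pools (scipy 1.17.1), and thinning used 1000 UMIs. The test was checked on simulated data. Named genes were the markers, up to 4 called and 2 uncalled genes per list, the 8 largest rises and falls with at least 100 UMIs and 1 direction in both preparations, and genes named by the study. Other list members are named after their values were seen. Coordinates are from RefSeq (GRCm38.p6, the assembly of mm10), which held 75 of 75 names. Alternatives were DESeq2 1.42.0, no filter, each preparation, 16 libraries with preparation as a term, other limits, thinning before the gate, each pool left out, and, added after seeing the data, members with no UMI of 8 other-cell genes. Some genes that the rule names are not reported here.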

Additional observations from a re-analysis of the deposited data

Results flagged for a closer look

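In 15 of 142 groups of 4 pools, 1 pool stood farther from the other 3 than Dixon's 95% critical value allows, which chance gives in about 1 of 20 groups. Values are UMIs per 10000 in members unless stated. The Isotype Control pool stood apart for *Xcl1* (7.02, others 2.60 to 3.27), *Pim1* (2.04, others 1.48 to 1.54), *Itgam* (0.0324, others 0.00708 to 0.00785), *Prss16* (0.0162, others 0.00708 to 0.00785), and *Mmp3* (0.0647, others 0 to 0.00785). This pool held the fewest members (87). The *Prss16* count was the same in these 4 pools, so its value differs only through the smaller UMI total of Isotype Control. The values of *Itgam*, *Mmp3*, and, below, *Krt83* rest on a few UMIs per pool at most. The Anti-PD-1 pool had the only *Esm1* UMI without PancVAX (0.00768), the Anti-CTLA-4 pool was low for *Il21r* (0.965, others 1.17 to 1.20), and the pool with both antibodies was low for *Krt83* (0.00708, others 0.0307 to 0.0324). The PancVAX pool was high for *Klrg1* (0.265, others 0.10 to 0.122) and *Dusp2* (12.1, others 9.80 to 10.1). The PancVAX + Anti-PD-1 pool was high for *Irf8* (0.578, others 0.349 to 0.364). The PancVAX + Anti-CTLA-4 pool was high for *Col3a1* (0.991, others 0.0835 to 0.121) and *Klra1* (0.0502, others 0.00396 to 0.00970) and low for *Lag3* (0.386, others 0.708 to 0.774). Among other CD8+ T cells, the chance that 2 cells shared a clone was 6.26% with PancVAX and both antibodies, against 1.20% to 1.94% in the other vaccinated libraries.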

How the results depend on the processing

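The share of members among CD8+ T cells differed by 34.7 to 45.3 points under the alternatives run. Its *P* value is the smallest possible whenever the groups do not overlap and says nothing of stability. The count of genes called with PancVAX was 824 with no filter on low counts, 148 in whole tumor and 330 in Percoll libraries, and 308 to 584 with 1 pool left out. DESeq2 called 347, of which 341 were shared with edgeR. With members chosen after thinning to 1000 UMIs, 383 were called, and 206 of them were called in the same direction over all members. For Anti-PD-1 the count was 94 with no filter and 0 to 5 with 1 pool left out. In libraries with PancVAX only, a fit that took the 2 libraries of each pool as separate replicates, it was 30. For Anti-CTLA-4 it was 213 with no filter, 91 in libraries with PancVAX only, 10 with DESeq2, 8 in Percoll libraries and 8 with members chosen after thinning, 0 in whole tumor libraries, within the study's own limits on barcodes, and without barcodes holding the 8 other-cell genes, and 0 to 25 with 1 pool left out. For preparation DESeq2 called 175. With members chosen after thinning, clonality against other CD8+ T cells differed by −1.21 points (exact permutation, *P* = 0.0313), and with 1 library left out by −1.88 to −0.67. The PancVAX difference in clonality was −0.80 points with members chosen after thinning (exact permutation, *P* = 0.4). With 1 library left out it ran from −2.14 to −0.69. For PancVAX, *S100a8* and *S100a9* changed sign with members chosen after thinning, to log2 fold changes of 2.11 and 1.67. For preparation, *Slurp1* changed sign with DESeq2, to −0.31. The causes were not tested. Of 3832 values of named genes under alternatives, 3645 stayed called or stayed uncalled, 112 lost and 72 gained a call, and 3 reversed. The 3645 include 356 values that were not called and changed sign. Of 61 named genes called with PancVAX, 27 lost the call under at least 1 alternative. The Isotype Control libraries, with 38 and 49 members, limit the precision of scarce genes. The labels give the treatments no shared replicate numbers, so no replicate block was fitted.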
